A study of Mus musculus with 2 samples.

Results

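The transcripts of centrosomal and microtubule-associated proteins were compared between the second polar body (PB2) and the zygote of the mouse 1-cell embryo. The genes were taken by symbol from the deposited table: the numbered Cep genes, Haus, Camsap, Tacc, Ckap, Mapre, Clasp, Map1, Map4 and Map7 names, and Pcnt, Tpx2 and Numa1. This gave 64 of the 11262 genes of the table. GENCODE M21, a mouse annotation, holds 70 protein-coding genes with such symbols. The other 6 were not in the table by identifier and were not analysed here.

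The embryos were of the C57BL/6 strain by the labels (C57BL/6N in the study's methods), untreated and at the late 1-cell stage. PB2s were detached by trypsin and pipetting once the zona pellucida, the coat of the egg, had been dissolved, and the zygotes were what was left of the embryo. There was 1 pooled library of PB2s and 1 of zygotes, each from amplified polyA RNA. Without replicates no test was run, and each difference is one between these libraries, with no estimate of the spread between samples.

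A centrosome is a pair of centrioles embedded in pericentriolar material, which holds the γ-tubulin complexes that start new microtubules. Mouse eggs have no centrioles and build the meiotic spindle from several acentriolar microtubule-organizing centres, which contain pericentriolar proteins such as pericentrin. As the second meiotic division ends, a midbody of bundled microtubules joins PB2 to the zygote for a time. The proteins described below nucleate microtubules, hold their ends, bind along them, or sever the last bridge between daughter cells.

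Levels are TPM, which by definition are read counts divided by transcript length and set on a common total for each library. TPM is a proportion: a lower value may stand for fewer molecules or for more of other transcripts, and amounts per cell cannot be told from it. The table adds up to 898326 TPM in PB2 against 927063 TPM in the zygote, and the number of reads behind it is unknown. The log2 ratio is the log2 of PB2 TPM + 1 minus that of zygote TPM + 1, so positive values are higher in PB2, and it was taken over the 10645 genes with at least 1 TPM in either library. All 12 oocyte markers examined were present, and their levels summed to 54570 TPM in PB2 against 68060 TPM in the zygote. The lower PB2 sum rests on Dppa3, whose level was 22561.9 TPM in the zygote library but 8070.2 TPM in that of PB2. By log2 ratio the markers showed no common direction, with 6 above 0, 6 below and a median of 0.024. Past 2-fold, 3 of them lay towards PB2 and 1, Dppa3, towards the zygote. Of 12 cumulus and granulosa cell markers 3 were in the table, Fshr, Kitl and Cyp19a1, with summed levels of 78.9 and 80.7 TPM, nearly all from Cyp19a1. Of 8 sperm markers Prm2 and Akap4 were in the table, with sums of 22.6 and 20.8 TPM. The part of these markers in the results below was not tested.

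All 64 genes reached 1 TPM in PB2 and 63 did so in the zygote, the exception being Cep97. At least 10 TPM were found for 46 genes in PB2 and 41 in the zygote. The median level of the set was 26.8 TPM in PB2 against 17.1 TPM in the zygote. Over all genes compared the medians were 12.8 and 10.1 TPM, so these too were higher in PB2. The log2 ratio was above 0 for 41 genes, below 0 for 22 and exactly 0 for Cep72, so 64.1% lay above 0, as did 59.2% of all genes compared. Its median was 0.45, against 0.21 over all genes compared.

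On the log2 ratio, PB2 exceeded the zygote by 2-fold or more for 10 of the 64 genes, among them Camsap3, Map1s, Cep170b, Haus4, Pcnt, Map7d2, Cep68, Numa1 and Cep76. The 10 made up 15.6% of the set, and 18.9% of all genes compared were as much higher in PB2. The zygote exceeded PB2 to that extent for 6 genes, Cep128, Haus3, Tpx2, Tacc3, Haus6 and Ckap5, or 9.38% of the set, against 8.09% of all genes. At this threshold both shares are near those of the whole table. At 4-fold 4 genes (6.25%) lay towards PB2, where all genes gave 2.48%. After a trend on GC content was taken out the share towards PB2 was also above that of all genes, as it was at 1.5-fold. Other settings went the other way. With a trend on transcript length taken out, 7 genes (10.9%) were past 2-fold towards PB2, against 12.1% of all genes. Towards the zygote there were then 8 (12.5%), against 11.7%. Rescaling the libraries also left the share towards PB2 below that of all genes. These are counts of few genes, and no test of a difference was run. Since the median ratio of all genes lay above 0, the ratios were also centred on it, which left 8 genes on either side (12.5% each), against 13% and 12.1% of all genes. The pseudocount of 1 in the log2 ratio understates the change of low genes: Map7, Map7d1, Cep126, Cep97, Haus5 and Cep63 were 2-fold apart in TPM but not on this scale.

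**Figure D1:**
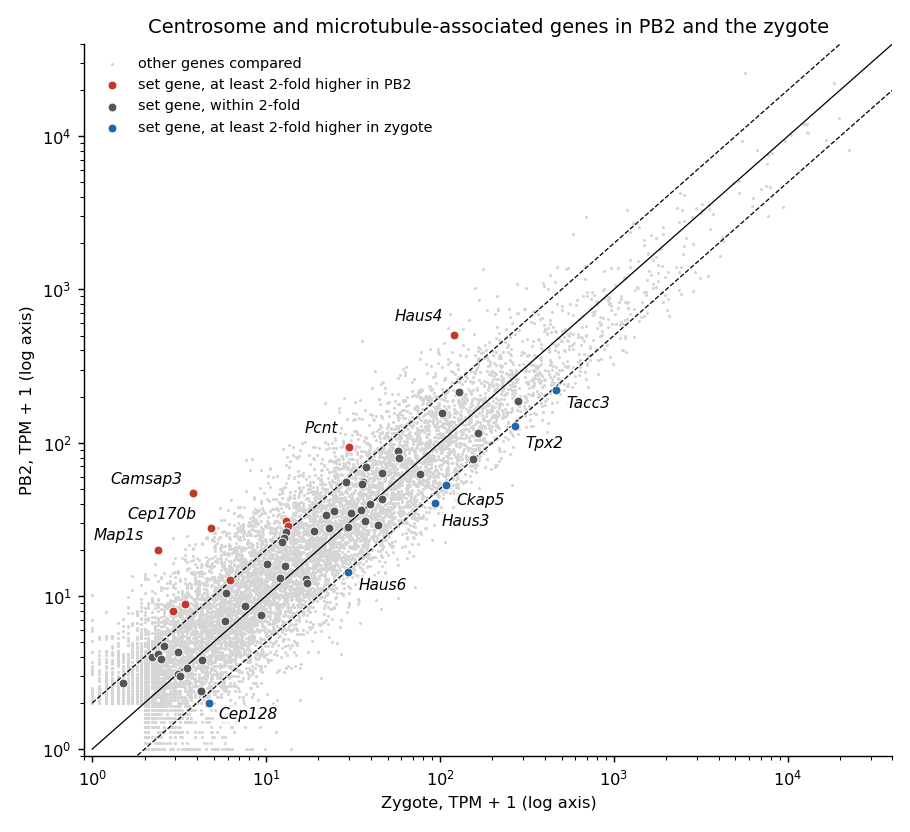
TPM + 1 in the zygote (x axis) and in PB2 (y axis), both on log axes, for the 64 centrosome and microtubule-associated genes (large points) and the other genes compared (grey). The solid line marks equal levels and the dashed lines 2-fold. Camsap3, Map1s, Cep170b and Haus4 lie farthest above the upper dashed line, and the 6 genes past 2-fold towards the zygote lie close to the lower one.

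The log2 ratio moved with the base composition of the transcripts. Median GC content was 55.3% for the 10 genes on the PB2 side of 2-fold, and for the 48 genes within 2-fold it was 46.6% and for the 6 on the zygote side 45.8%, measured on the longest protein-coding transcript. GC content and log2 ratio had a Spearman's rho of 0.37 over the 64 genes and 0.44 over all genes compared, as a description across genes that share both libraries. Camsap3 and Map1s, with GC contents of 59.9% and 64.1%, are GC-rich, and Haus3, with 37.3%, had the lowest GC content of the set.

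Coding sequences are shown for the genes with the largest log2 ratios and for the subunits of the augmin complex with the highest and lowest log2 ratio. Each line gives 60 coding bases in frame from the GENCODE M21 transcript, 5′ to 3′, with G or C at the third position of a codon in capitals. The window is the first whose share of such positions is nearest to that of the whole coding sequence, 59.98% for Camsap3, 68.0% for Map1s, 71.9% for Haus4 and 36.0% for Haus3. The median of all genes compared was 58.4%, so Camsap3 is near it, Map1s and Haus4 lie above it and Haus3 lies below.
Camsap3: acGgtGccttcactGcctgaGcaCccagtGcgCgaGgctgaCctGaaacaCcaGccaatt
Map1s: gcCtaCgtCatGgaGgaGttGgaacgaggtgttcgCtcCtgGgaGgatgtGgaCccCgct
Haus4: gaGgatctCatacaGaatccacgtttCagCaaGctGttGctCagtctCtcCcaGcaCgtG
Haus3: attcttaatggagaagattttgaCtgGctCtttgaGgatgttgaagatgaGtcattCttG
Of the 20 codons shown, 12 end in G or C in Camsap3, 14 in Map1s, 14 in Haus4 and 7 in Haus3. These windows lie at bases 856 to 915, 169 to 228, 300 to 359 and 329 to 388 of the transcripts, on chromosomes 8, 8, 14 and 5.

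The genes with the highest TPM of the set differed between the libraries. In the zygote 9 genes reached 100 TPM, in falling order Tacc3, Cep55, Tpx2, Ckap2, Cep70, Cep164, Haus4, Ckap5 and Mapre1. In PB2 7 genes did so, in the order Haus4, Tacc3, Cep164, Cep55, Mapre1, Tpx2 and Ckap2. Of the 9 genes leading in the zygote, 6 had less in PB2, and Haus4, Cep164 and Mapre1 had more, though the log2 ratio of Cep164 turned to -0.11 with the GC trend removed.

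Augmin is a complex of 8 subunits that binds an existing microtubule and recruits γ-tubulin complexes, so that new microtubules branch from its side. Its subunit Haus4 had 118.8 TPM in the zygote against 499.6 TPM in PB2, or a log2 ratio of 2.06 and the highest PB2 level among the 64 genes. Of all genes in the table, 97.8% had less than Haus4 in PB2 and 90.3% had less in the zygote. Haus3 went the other way, with 92.0 TPM in the zygote against 39.6 TPM in PB2 (log2 ratio -1.20). Haus6 also was lower in PB2, with 28.5 and 13.4 TPM (-1.03). Thus 1 of the 8 subunits (12.5%) passed 2-fold towards PB2 and 2 (25%) towards the zygote, where all genes gave 18.9% and 8.09%. These are few genes, and whether the split differs from that of the whole table was not tested. With the GC trend removed Haus4 stood at 1.37, and Haus3 and Haus6, at -0.74 and -0.77, were no longer past 2-fold.
The other 5 subunits lay within 2-fold. Haus1 had 42.8 TPM in the zygote and 27.9 in PB2, Haus8 36.2 and 29.6, and Haus7 34.1 and 35.1. Haus2, with 1.5 and 2.9 TPM, and Haus5, with 1.4 and 3.2 TPM, were of low abundance in both libraries. Of the exon bases of Haus5, 56.5% are shared with Gm21982, a transcript annotated on the same strand. How reads there were counted is not stated, so the level of Haus5 is less certain. Haus4 held 33.4% of the summed TPM of the 8 subunits in the zygote and 76.7% in PB2, while Haus3 held 25.9% and 6.08%. The median log2 ratio of the complex was -0.12, so its sum, 355.3 TPM in the zygote against 651.3 TPM in PB2, was higher in PB2 through Haus4.

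**Figure D2:**
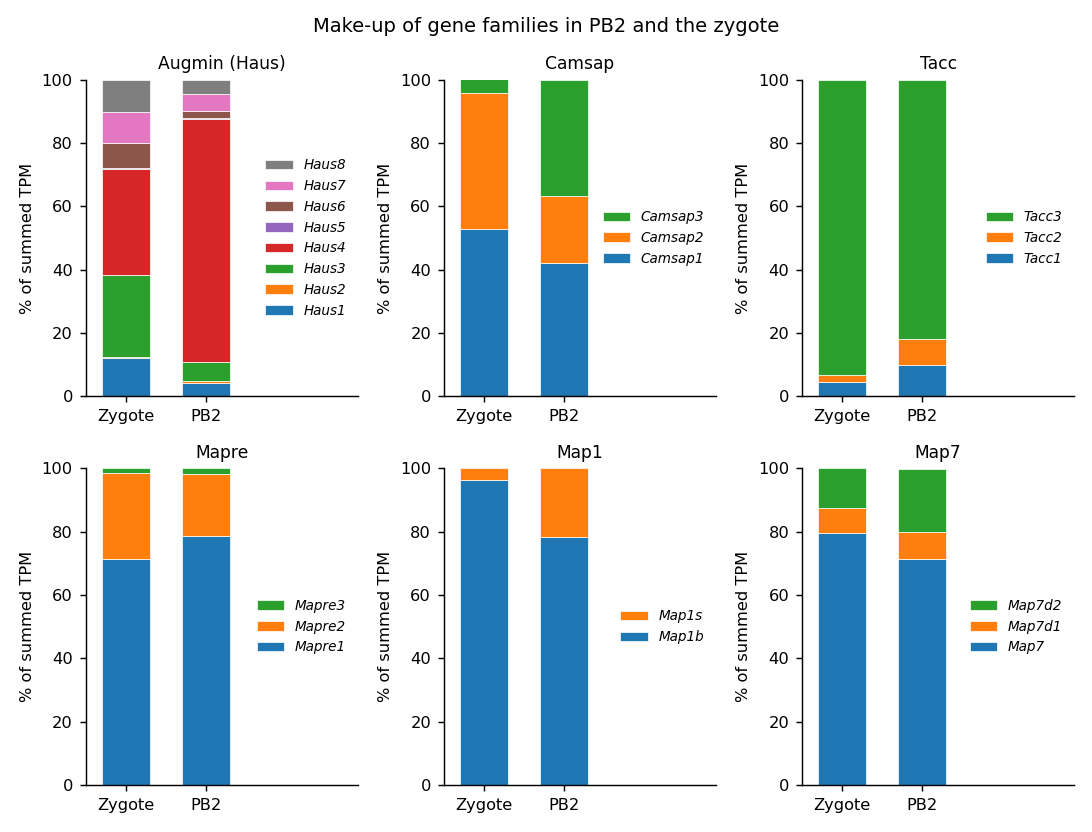
Share of each gene (y axis, % of the family's summed TPM) in the zygote and in PB2 for augmin and 5 gene families. Haus4 takes 33.4% of augmin TPM in the zygote and 76.7% in PB2, and Camsap3 takes 4.28% and 36.6% of Camsap TPM; of the families drawn (augmin, Camsap, Tacc, Mapre, Map1 and Map7) the make-up of Mapre differs least.

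Camsap proteins bind and stabilize microtubule minus ends that no centrosome holds. Camsap3 (ENSMUSG00000044433, chr8:3587293-3609075 of GRCm38, plus strand) had 2.8 TPM in the zygote against 46.0 TPM in PB2. Its log2 ratio of 3.63 was the largest of the set. Taken without the pseudocount the ratio was 16.4, and values rounded to 1 decimal allow anything from 16.1 to 16.75. Camsap3 was the scarcest of the 3 Camsap genes in the zygote and the middle gene in PB2, since Camsap1 had 34.5 TPM in the zygote and 52.9 in PB2, and Camsap2 had 28.1 and 26.8. Its share of Camsap TPM was 4.28% in the zygote and 36.6% in PB2. Of the exon bases of Camsap3, 9.32% overlap exons of Xab2 on the opposite strand, and whether reads were counted by strand is not stated.

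Proteins that bind along the microtubule wall all had log2 ratios above 0, as did 59.2% of all genes, from 0.86 to 3.04 over 6 genes, with a median of 0.95, though Map7d1 fell to -0.16 once the GC trend was taken out. Map1s, a short relative of the neuronal Map1 proteins, had 1.4 TPM in the zygote against 18.8 TPM in PB2. This is a log2 ratio of 3.04, and rounding allows a ratio of the deposited values between 12.9 and 13.96. Map1b, better known from growing axons, had 36.3 and 68.0 TPM (0.89) and stayed the more abundant of the pair. Map1s took 3.71% of their summed TPM in the zygote and 21.7% in PB2.
The Map7 proteins recruit kinesin-1, a motor that walks towards plus ends. Map7d2 had 1.9 TPM in the zygote against 7.0 TPM in PB2 (1.46). Map7, with 12.1 and 25.0 TPM, had a log2 ratio of 0.99 and was the gene nearest to the 2-fold limit from below. Map7d1 had 1.2 and 3.0 TPM (0.86). Map4, the widely expressed member of the tau family of proteins, had 11.6 and 22.8 TPM (0.92). Map1s and Map7d2 were the only 2 of the 6 past 2-fold (33.3%, where all genes gave 18.9% towards PB2).

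The genes higher in the zygote included, beside Haus3, Haus6 and Cep128, the spindle factors Tpx2, Tacc3 and Ckap5. Tacc3 and Ckap5 act together: Tacc3 crosslinks the fibres of the spindle, and Ckap5 (chTOG) is a polymerase that adds tubulin at plus ends. Tacc3, the most abundant gene of the set in the zygote, had 463.4 TPM there and 219.6 TPM in PB2, or a log2 ratio of -1.07. Ckap5 had 106.8 and 51.9 TPM, or a log2 ratio of -1.03, and it lay just past the 2-fold limit (-0.91 with the GC trend removed). Tpx2, which activates Aurora A and promotes microtubule growth around chromatin, had 268.8 TPM in the zygote against 126.6 TPM in PB2 (-1.08). All 3 thus had a little under 50 TPM in PB2 for each 100 TPM in the zygote, and they remained well above the PB2 median of the table, which was 11.1 TPM. Of the exon bases of Tacc3, 8.14% overlap Tmem129 on the opposite strand.
Numa1, which focuses spindle poles with dynein, differed from these factors, with 12.1 TPM in the zygote against 29.6 TPM in PB2 (1.22). Ckap2, a spindle protein that promotes microtubule nucleation, had 164.1 and 115.0 TPM (-0.51), and its relative Ckap2l had 29.8 and 33.5 TPM (0.16). Tacc1, with 21.9 and 26.7 TPM, and Tacc2, with 11.3 and 21.5 TPM, had log2 ratios of 0.27 and 0.87, unlike Tacc3, though that of Tacc1 became -0.0080 with the GC trend removed. Tacc3 held 93.3% of Tacc TPM in the zygote and 82.0% in PB2.

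End-binding proteins track growing plus ends and carry other factors there. Mapre1 (EB1) had 101.3 TPM in the zygote against 155.0 TPM in PB2 (0.61). Mapre2 was at nearly the same level in both, with 38.4 and 38.6 TPM, and Mapre3 had 2.1 and 3.3 TPM. Mapre1 held 71.4% of the family's TPM in the zygote and 78.7% in PB2. The Clasp proteins, which rescue shrinking plus ends, were within 2-fold: Clasp2 had 17.8 and 25.5 TPM, and Clasp1 had 4.8 and 5.9 TPM. Of the 9 genes acting at plus ends, Tacc genes and Ckap5 included, 7 (77.8%, where all genes gave 59.2%) had log2 ratios above 0. None reached 2-fold towards PB2, where 18.9% of all genes did, and 2 (22.2%, against 8.09% of all genes) passed it towards the zygote. With the GC trend removed the median of 0.27 became -0.0080, and 1 gene passed towards the zygote.

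Pericentrin, encoded by Pcnt, is the scaffold of the pericentriolar material and of the egg's microtubule-organizing centres. Pcnt had 28.9 TPM in the zygote against 92.2 TPM in PB2, or a log2 ratio of 1.64, the largest among the 19 genes for pericentriolar material and centriole assembly. With the GC trend removed Pcnt stood at 0.94, and Cep68, Cep76, Cep97 and Cep44 had larger values, from 0.97 to 1.28. Cep192, which recruits γ-tubulin, Aurora A and Plk4, had 16.0 and 11.8 TPM (-0.41). The scaffold and its partner thus leaned to different libraries, the latter by less than 2-fold. Cep68, a part of the linker that ties centrosomes together, had 2.4 and 7.9 TPM (1.39), while Cep250, which anchors that linker, had 2.2 and 2.0 TPM. Cep76, which limits centriole reduplication, had 12.4 and 27.7 TPM (1.10).
The pair Cep63 and Cep152, which brings Plk4 to the centriole, was scarce. Cep63 had 3.2 TPM in the zygote against 1.4 TPM in PB2 (-0.81), and Cep152 had 3.3 and 2.8 TPM. Cep70, which binds γ-tubulin, was the most abundant of the 19 genes in the zygote, with 154.2 TPM there and 77.6 TPM in PB2. Its log2 ratio of -0.98 put it just short of 2-fold. Cep97, which caps centrioles, was the lowest gene of the set in the zygote, with 0.5 TPM there and 1.7 TPM in PB2. Cep78, with 56.6 and 87.8 TPM, and Cep57l1, with 75.3 and 61.5 TPM, were also abundant. The log2 ratios of these and the other 8 genes of this group lay between -0.29 for Cep57l1 and 0.95 for Cep44. Over the 19 genes, 3 (15.8%) passed 2-fold towards PB2 and none towards the zygote, where all genes gave 18.9% and 8.09%. The median was 0.13, against 0.21 for all genes. Neither the count towards the zygote nor the median was stable. With the GC trend removed the median was 0.19 against 0.0098 for all genes, and 1 gene passed towards the zygote. With the ratios centred 2 did, and with the length trend removed the median was -0.22.

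A list of distal appendage, transition zone and ciliary Cep genes, for structures that mouse eggs lack, had 9 members in the table. Of these 7 (77.8%) had log2 ratios above 0, as did 59.2% of all genes, and the median was 0.68. The subdistal appendage genes Cep128 and Cep170 were not on this list and had ratios below 0. Cep164, which docks the mother centriole to the membrane, was abundant in both libraries, with 127.4 TPM in the zygote against 214.0 TPM in PB2 (0.74, but -0.11 with the GC trend removed). Cep83 had 56.8 and 78.1 TPM, Cep41 had 45.4 and 41.9 TPM, and Cep290, a gatekeeper of the ciliary base, had 4.9 and 9.5 TPM. Cep89 was the lowest in ratio, with 16.3 and 11.1 TPM (-0.52). Transcripts for ciliary proteins were therefore measured in both libraries, at levels from 1.6 to 127.4 TPM in the zygote and from 3.7 to 214.0 TPM in PB2.

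Among the other Cep genes, Cep170b had 3.8 TPM in the zygote against 26.6 TPM in PB2, or a log2 ratio of 2.52. Its close relative Cep170, a subdistal appendage protein that binds microtubules, had 8.4 and 6.5 TPM (-0.33), so that their order was opposite in the libraries. Cep128, another subdistal appendage protein, was lowest in ratio of the whole set, with 3.7 and 1.0 TPM (-1.23). At such levels rounding alone allows a PB2 to zygote ratio from 0.253 to 0.288.
Cep55 is the midbody protein that calls in the ESCRT machinery to cut the bridge between daughter cells. It was among the most abundant genes of the set, with 279.3 TPM in the zygote against 185.4 TPM in PB2, or a log2 ratio of -0.59.

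**Figure D3:**
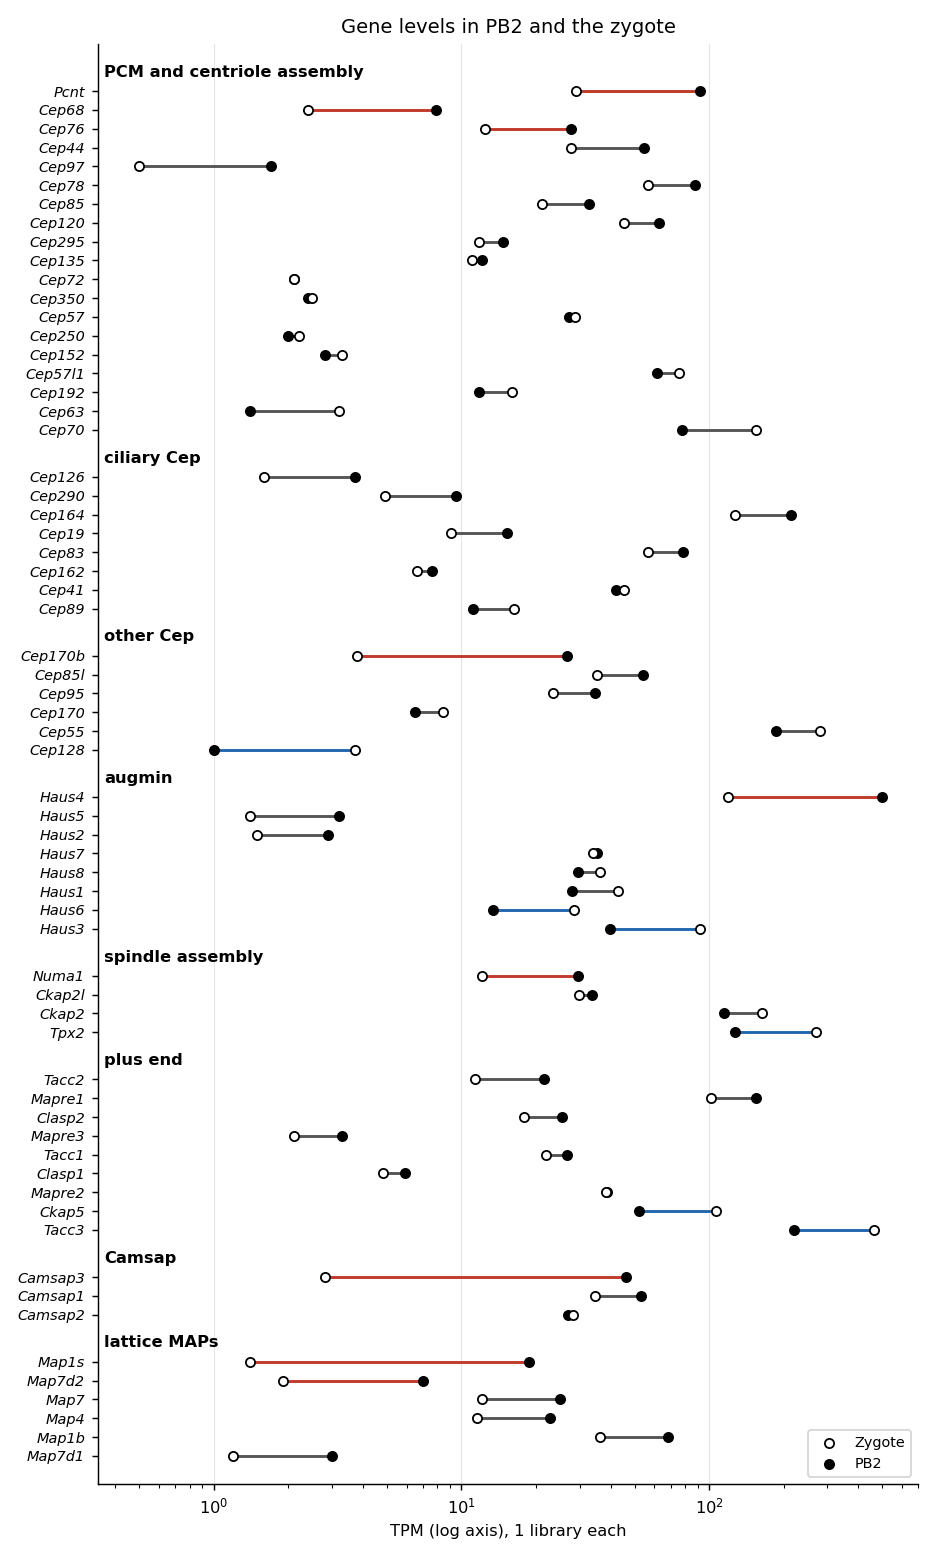
TPM (x axis, log) of 63 of the 64 genes in the zygote (open circles) and PB2 (filled circles), by role, 1 library each; PCM is pericentriolar material. Red lines join values whose log2 ratio, with its pseudocount of 1, passes 2-fold towards PB2, blue lines those that pass it towards the zygote, and grey lines the rest; all 6 lattice-binding genes are higher in PB2 (Map7d1 no longer with the GC trend removed), while augmin has genes of all 3 kinds.

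Genes of the same pathways outside this set were read from written lists. Of 27 partners in centrosome structure and microtubule nucleation that were compared, 3 passed 2-fold towards PB2 and none towards the zygote, and the median log2 ratio was 0.021. That is 11.1% towards PB2, where all genes gave 18.9%, and with the GC trend removed 0 passed. The 3 were Tubg2, a γ-tubulin (109.8 TPM in the zygote against 352.6 TPM in PB2), Cntrob (6.9 and 21.9 TPM) and Poc1b (13.8 and 28.9 TPM). Poc5, another centriole protein, had 71.1 and 38.7 TPM. Of 19 midbody and abscission genes, 4 were past 2-fold towards PB2 (Kif20a, Chmp1a, Pdcd6ip and Cit) and 3 towards the zygote (Chmp2a, Mitd1 and Anln), with a median of -0.0030. These are 21.1% and 15.8% of the list, where all genes gave 18.9% and 8.09%. With the GC trend removed 2 and 2 of the 19 passed, where all genes gave 9.08% and 11%. Chmp1a (0.66), Cit (0.40) and Anln (-0.98) were among those that no longer did. Kif20a, a kinesin of the central spindle, had 11.2 TPM in the zygote against 36.2 TPM in PB2, and the ESCRT gene Chmp1a had 6.0 and 17.7 TPM. Chmp2a, also of ESCRT, had 65.7 TPM in the zygote against 25.8 TPM in PB2, and Mitd1, an abscission factor, had 103.4 and 45.2 TPM. Midbody genes thus lay on both sides of 2-fold, as did genes of the whole table. Of 25 other microtubule regulators, 4 (16%) passed 2-fold towards PB2, Dclk2, Slain1, Katnal1 and Clip4, with log2 ratios from 1.27 to 1.67. Stmn1 (-1.04) was the 1 (4%) that passed it towards the zygote, where all genes gave 18.9% and 8.09%. In all, 15 of the 25 had ratios above 0 and 10 below. With the GC trend removed the counts were again 4 and 1, where all genes gave 9.08% and 11%.

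With the trend of all genes on GC content removed by loess, which also centres the ratios, there were again 10 genes past 2-fold towards PB2 (15.6%, where all genes gave 9.08%) and 6 towards the zygote (9.38%, where all genes gave 11%). Of the 10, 7 were among those counted before: Camsap3, Map1s, Cep170b, Haus4, Map7d2, Cep68 and Cep76. Pcnt and Numa1 were no longer past 2-fold, with log2 ratios of 0.94 and 0.49, and Cep290, Cep126 and Cep97 were. In the other direction Tpx2, Tacc3 and Cep128 stayed past 2-fold, Haus3, Haus6 and Ckap5 fell short at -0.74, -0.77 and -0.91, and Haus8, Cep63 and Cep89 passed. Camsap3 kept a log2 ratio of 2.68 and Map1s of 1.99. Tacc3, with a GC content of 52.7%, went from -1.07 to -1.55. The part of GC content in the difference between the libraries was not tested beyond this.

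**Figure D4:**
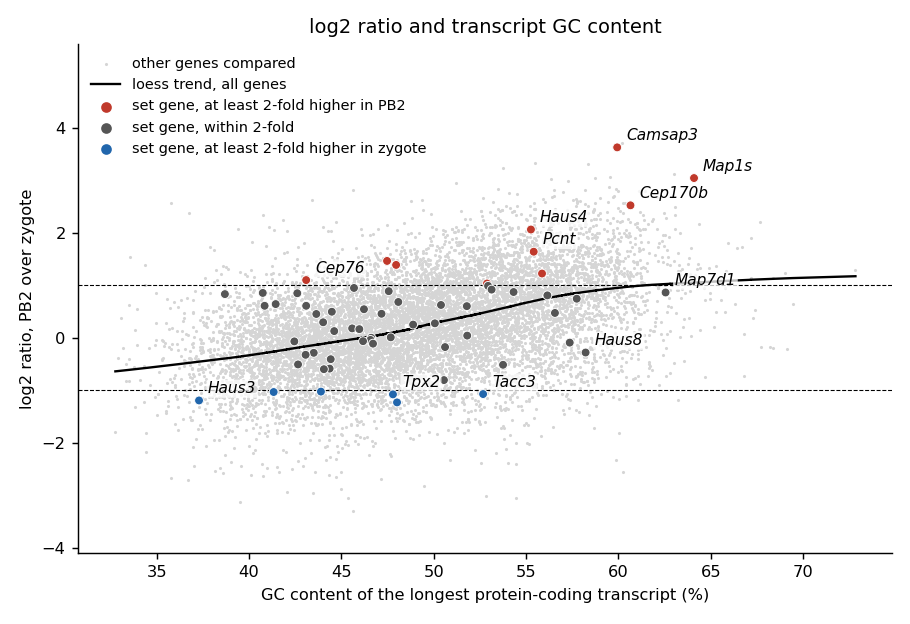
log2 ratio of PB2 over zygote (y axis) against the GC content of the longest protein-coding transcript (x axis, %) for the 64 genes (large points) and the other genes compared (grey), with the loess trend over all genes as a line and 2-fold as dashed lines. Camsap3, Map1s, Cep170b and Haus4 lie above the trend, and Tacc3 and Haus8 lie below it.

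In eggs, stored messages are often controlled by cytoplasmic polyadenylation elements, short U-rich motifs near the poly(A) signal that govern the length of the poly(A) tail. The last 100 bases of the longest transcript were searched for TTTTAT or TTTTAAT on the sense strand, in 61 genes of the set with a 3′ UTR of that length. A motif was found in 18 of them (29.5%), against 20.3% of the 10684 genes of the table that could be searched. Of the genes past 2-fold towards PB2 it was found in 4 of 10, of those within 2-fold in 13 of 46, and of those past it towards the zygote in 1 of 5. Shares over all genes were not computed for these classes, and a link with direction was not tested. A poly(A) signal, AATAAA or ATTAAA, which may share bases with these motifs, was found in 86.9% of the set and 81.9% of all. Windows of 30 bases with the motif in capitals are given for Cep170b, Pcnt and Ckap5, which were 2-fold apart, and for the abundant Cep55 and Cep70.
Cep170b: aggaaatggttaTTTTATatgatttgtcat
Pcnt: tcagtttattctTTTTATtggcaaaacaaa
Ckap5: aatttaagagacTTTTATaaataaagtttg
Cep55: accaaaatgtgTTTTATtccttcagatttt
Cep70: tatgtaatgtacTTTTATaaagaaataaga
The motif starts 66 bases before the transcript's end in Cep170b, 39 in Pcnt, 28 in Ckap5, 89 in Cep55 and 51 in Cep70. Genes of both directions hold it, and a match in an annotated transcript is not evidence of use in the egg. Cep76 holds it too and is named only.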

How the data were processed

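RNA-seq values of 1 PB2 library and 1 zygote library were used. The libraries were made from pooled material with a single-cell full-length amplification kit, which can shift the proportions of transcripts. The authors deposited TPM values rounded to 1 decimal; HISAT2 2.0.4, HTSeq 0.6.1p1 and DESeq2 1.18.1 are named in the submitters' processing notes. Both OryCun2.0, a rabbit assembly, and GRCm38 are named as builds, and the identifiers are mouse; how TPM was computed is not given in the sources used here. Depth is unknown, so no counting interval is given. Of the value columns, 0 were without a sample.

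Genes were compared with a pseudocount of 1 and counted at 2-fold. DESeq2 was not run, because TPM are not counts and there are no replicates. Lengths, GC contents, positions and sequences came from GENCODE M21 (GRCm38), matched by identifier for 11221 genes and all 64 of the set. Trends were removed by loess with a span of 0.3. The loess was tried on simulated data with a straight trend and chosen noise, and its fit to the trends of these data was not tested. The genes, lists and alternatives were chosen with earlier results of these data known. Levels are printed for each gene that is no numbered Cep gene and, among Cep genes, for those 2-fold apart, the 5 most abundant in each library, Cep55 and those next to the 2-fold limit. The values of 1 gene of the set are not reported here, though it is in the counts. Cep41, Cep63, Cep89, Cep97, Cep152, Cep170, Cep192, Cep250 and Cep290 were added after their values were seen. Outside the set at most 4 genes a list were to be named, those with the largest log2 ratio and at least 10 TPM in the higher library; Stmn1, Pdcd6ip, Cit and Anln were added later. The software was Python (3.11.15) with numpy (2.4.6), pandas (2.3.3), statsmodels (0.14.6) for loess, scipy (1.17.1) for correlations and matplotlib (3.10.9) for plots.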

Additional observations from a re-analysis of the deposited data

How the results depend on the processing

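No paired analysis was possible because PB2 and zygote are represented by 1 library apiece, and no library could be left out. Counts within 1.5 times, set medians within 0.25 and log2 ratios of a gene within 0.5 of the reported value were taken as unchanged. Of 31 values for the whole set under 11 alternatives, 25 were unchanged in this sense. Lowering the threshold to 1.5-fold gave 28 genes towards PB2 and 10 towards the zygote (43.8% and 15.6% of the set, 34.2% and 18.1% of all genes), and raising it to 4-fold gave 4 and 0 (6.25% and 0% of the set, 2.48% and 0.70% of all genes), the 4 being Camsap3, Map1s, Cep170b and Haus4. The median log2 ratio was 0.18 with the GC trend removed and 0.11 with the length trend removed; each removal also takes out the overall shift, and the cause was otherwise not tested. With pseudocounts of 0.1 or 0.01, the counts were 15 and 7, the additions being Map7, Map7d1, Cep126, Cep97, Haus5 and, for the zygote, Cep63. These are 23.4% and 10.9% of the set, against 24.6% and 10.3% of all genes at 0.1 and 24.7% and 10.4% at 0.01. Scaling the zygote to a median ratio of 1, or leaving out mitochondrially encoded and the 50 most abundant genes, gave 9 and 7. Those are 14.1% and 10.9% of the set, where all genes gave 16.7% and 9.22% scaled and 18.1% and 9.7% with those genes left out. None of the 16 genes at least 2-fold apart changed sign under any alternative, and 133 of 143 of their values were unchanged. The 10 values that moved were Map1s and Cep128 with smaller pseudocounts and Camsap3, Map1s, Cep170b, Haus4, Pcnt and Numa1 with the GC trend removed. Part of this was fixed in advance: the filters on low values cannot alter a gene's ratio, and centring shifts every gene by 0.21. Nor does unchanged mean still past 2-fold. With the GC trend removed Haus3, Haus6 and Ckap5 counted as unchanged at -0.74, -0.77 and -0.91. Counting error cannot be given, and it limits most the genes of a few TPM, Map1s and Camsap3 in the zygote and Cep128 in PB2 among them.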
